A study of Mus musculus with 6 samples.

Results

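Long noncoding RNAs with known places in the cell were followed through an immunoprecipitation of YTHDF2 from regulatory T (Treg) cells of mouse tumours. The RNAs described are 6 of the 54446 Ensembl gene IDs counted, picked by ID: Malat1, Neat1 and Kcnq1ot1, which are known as nuclear RNAs, Gas5 and Snhg12, which are host transcripts of small nucleolar RNAs (snoRNAs), and Norad (2900097C17Rik), which is known as a cytoplasmic RNA. All 6 were among the 15615 genes with enough reads to be tested. The study measured which RNAs come down with YTHDF2, and its samples are 3 YTHDF2 immunoprecipitation (IP) libraries and 3 Input libraries, replicates 1 to 3 in each group. Both groups come from wild-type mice with a Foxp3-GFP reporter that bore subcutaneous B16F10 tumours, a mouse melanoma line, and from live cells sorted as CD45+, CD4+ and GFP+. The IP libraries hold RNA from the lysate left on beads carrying an anti-YTHDF2 antibody for 4 hours and washed 6 times. The Input libraries hold RNA from the 10% of lysate set aside before that step, with no antibody. The lysis buffer held a mild detergent and the lysate was cleared by centrifugation, with no separation of nucleus and cytoplasm described. No precipitation with a non-specific antibody, and none from YTHDF2-deficient cells, was analysed here. Enrichment below therefore means only a higher level in the IP than in the Input. Separate animals are not named as the source of the replicates. The p-values therefore compare the groups only through these libraries, whose spread within a group may be technical.

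YTHDF2 is a mainly cytoplasmic reader of N6-methyladenosine (m6A), a methyl mark on RNA, and it brings marked transcripts to the deadenylation and decay machinery. Long noncoding RNAs differ widely in where they stay. Malat1 is kept in nuclear speckles, Neat1 forms the scaffold of paraspeckles, and Kcnq1ot1 stays on the chromatin of the imprinted locus from which it is made. Gas5 and Snhg12 carry snoRNAs in their introns, and their spliced RNAs are known to reach the cytoplasm and to be short-lived. Norad is an abundant cytoplasmic RNA known for binding Pumilio proteins. Malat1 is also well known for carrying m6A.

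The IP libraries held 6847731 to 8465453 reads assigned to genes, and the Input libraries 10029733 to 14704617. The number of gene IDs with at least 1 read was 14200 to 19991 in the IP libraries, lowest in IP replicate 3, and 26250 to 33344 in the Input libraries. Of all reads, 71.7% ± 0.434 fell outside annotated features in the IP and 50.4% ± 1.08 in the Input (SD, n = 3 each). Within each group the libraries differed by more than sampling noise, so none was a repeat of another. The files pair no ID with a name, so the labelled cell type could not be checked against its markers.

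The 3 nuclear RNAs were enriched in the IP, and the other 3 were not called in either direction. Kcnq1ot1 was 5.01-fold higher in the IP than in the Input, Neat1 4.43-fold and Malat1 1.61-fold. Gas5, Snhg12 and Norad had estimated ratios of IP to Input of 0.851, 0.882 and 0.730, none of which passed the test. A gene was called at a Benjamini-Hochberg adjusted p under 0.05 in the quasi-likelihood test of edgeR, fitted to all 15615 genes. Of all tested genes 4.33% were called enriched and 6.11% depleted, while 14.7% and 16.9% were called among the 3904 genes above the upper quartile of mean level, which include the 3 nuclear RNAs and Gas5. The median over all tested genes was a log2 fold change of -0.12, IP over Input, with quartiles of -1.08 and 0.65. Among the genes above the upper quartile of level the median was 0.10, with quartiles of -0.62 and 0.59. The nuclear RNAs had log2 fold changes of 0.69 (Malat1), 2.15 (Neat1) and 2.33 (Kcnq1ot1). These 6 genes were picked with earlier results of the same libraries known, so the split between them is a description.

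**Figure D1:**
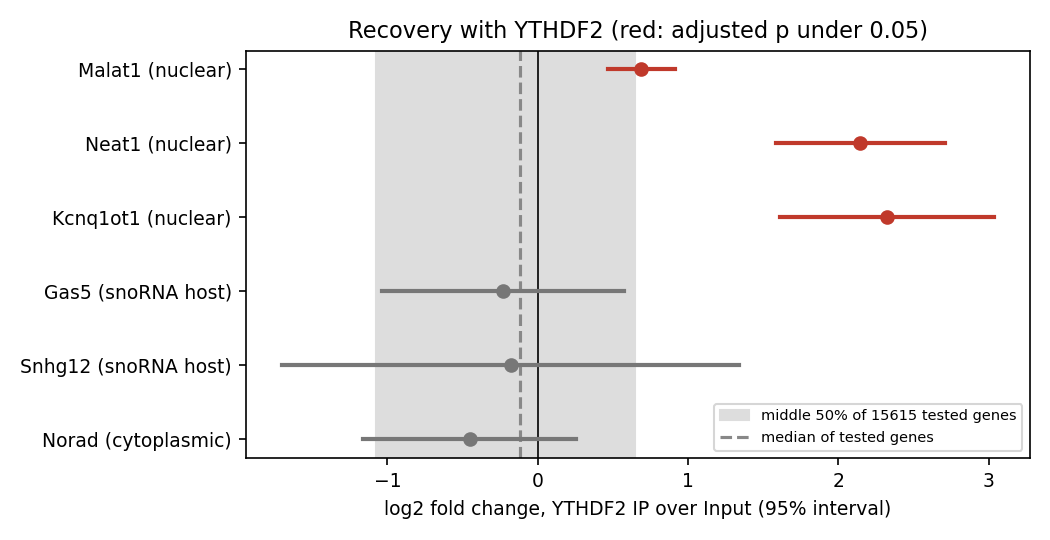
Points give the log2 fold change of YTHDF2 IP over Input for each RNA, with lines for the 95% interval of the edgeR fit (n = 3 libraries per group). The intervals of Malat1, Neat1 and Kcnq1ot1 lie above 0, and those of Gas5, Snhg12 and Norad include it. The grey band spans the quartiles of all 15615 tested genes.

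Malat1, the RNA with the most reads of the 6, is a long RNA of nuclear speckles that takes part in the control of splicing and transcription. Its gene (ENSMUSG00000092341) lies on chromosome 19 from base 5795690 to 5802672 of build GRCm38.p6, on the minus strand, and spans 6983 bases. A cleavage at its end releases a small tRNA-like RNA, mascRNA, whose 58 bases lie inside the annotated gene. Malat1 had 244829, 191669 and 218832 reads in IP replicates 1 to 3, against 262119, 160678 and 176629 in Input replicates 1 to 3. In CPM, the reads of a gene relative to the library's total with TMM factors that adjust for composition, this was 28669, 27826 and 25988 CPM in the IP and 18896, 16954 and 15302 CPM in the Input. The 3 IP libraries all lay above the 3 Input libraries on this scale, which held for 12.8% of all tested genes. Malat1 took 2.84% ± 0.0490 of gene-assigned reads in the IP and 1.62% ± 0.159 in the Input (SD, n = 3 each). It held rank 2 among all gene IDs in each IP library, against ranks 5, 6 and 4 in the Input libraries. The log2 fold change was 0.69 ± 0.10 (SE; 95% interval 0.47 to 0.91), and edgeR's test gave an adjusted p of 0.00222. Of the tested genes above the upper quartile of level, 20.6% had a higher log2 fold change than Malat1.

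The Malat1 call depended on what the reads were scaled to. With library sizes taken from all reads in the file, those outside genes included, its log2 fold change was 0.16. The adjusted p of Malat1 in edgeR's test was then 0.373. Over the 14 alternatives, which include DESeq2's Wald test and limma voom besides edgeR's test, the adjusted p ran from 2.23e-15 to 0.373. The lowest came from edgeR's test with no filter beyond 1 read, over 40072 genes. Without TMM factors and over all reads, Malat1 stood at 7190, 7093 and 6820 CPM in the IP libraries and at 7139, 6026 and 5716 CPM in the Input libraries, so the groups overlapped. That scaling moved the median of all tested genes to -0.65, and against that median Malat1 stood 0.81 higher on the log2 scale, as it did with TMM factors.

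Neat1 lies beside Malat1 on the same chromosome and is the architectural RNA of paraspeckles, nuclear bodies that hold certain RNAs and splicing factors back. Its gene (ENSMUSG00000092274) runs from base 5824708 to 5845480 of chromosome 19, a span of 20773 bases, and 22035 bases separate it from Malat1. Neat1 had 6927, 7967 and 5684 reads in the IP libraries, against 2667, 2403 and 1743 in the deeper Input libraries. It stood at 811, 1157 and 675 CPM in the IP and at 192, 254 and 151 CPM in the Input. The lowest IP library was thus well above the highest Input library, and 12.8% of all tested genes also had no overlap in this direction. The means were 881 ± 248 CPM in the IP and 199 ± 51.6 CPM in the Input (SD, n = 3 each). Within the same replicate number, which was not treated as a pairing, the log2 difference of IP minus Input was 2.08, 2.19 and 2.16. The fitted log2 fold change was 2.15 ± 0.25 (SE; 95% interval 1.58 to 2.71), and edgeR's test gave an adjusted p of 0.000749. Of the tested genes above the upper quartile of level, 0.615% had a higher log2 fold change.

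Kcnq1ot1 is a long antisense RNA, made from the paternal chromosome, that silences neighbouring imprinted genes. Its gene (ENSMUSG00000101609) runs from base 143213111 to 143296547 of chromosome 7 on the minus strand, a span of 83437 bases that lies wholly inside the protein-coding gene Kcnq1. It had 11080, 7879 and 7562 reads in the IP libraries and 4699, 1852 and 1524 in the Input libraries. These were 1297, 1144 and 898 CPM in the IP, against 339, 195 and 132 CPM in the Input. Every IP library lay above every Input library, which held for 12.8% of all tested genes, although Input replicate 1 stood well above the other Input libraries. The Input values varied with a coefficient of variation of 47.7%, the widest of the 6 RNAs in the Input, against 18.1% in the IP. The log2 difference within a replicate number, again not treated as a pairing, was 1.94, 2.55 and 2.76. The fitted log2 fold change was 2.33 ± 0.32 (SE; 95% interval 1.61 to 3.04), and edgeR's test gave an adjusted p of 0.00176. Of the tested genes above the upper quartile of level, 0.435% had a higher log2 fold change. Reads of Kcnq1 and Kcnq1ot1 that lie wholly inside the shared 83437 bases can be told apart only by strand. Whether the counting used strand is not given.

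The enrichment of the 3 nuclear RNAs stood beside a difference in library make-up. Reads in no annotated feature were more frequent in each IP file, at 71.2% to 72.1%, than in each Input file, at 49.6% to 51.6%. Reads that the counter could assign to more than one gene made up 0.409% ± 0.0120 of an IP file and 1.24% ± 0.0210 of an Input file (SD, n = 3 each). Reads whose alignment was not unique made up 3.09% ± 0.242 of an IP file and 9.44% ± 0.244 of an Input file (SD, n = 3 each). Each of these read classes had p = 0.1 in an exact two-sided permutation test, the smallest that 3 against 3 libraries allow. Their part in the enrichment of the nuclear RNAs was not tested.

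**Figure D2:**
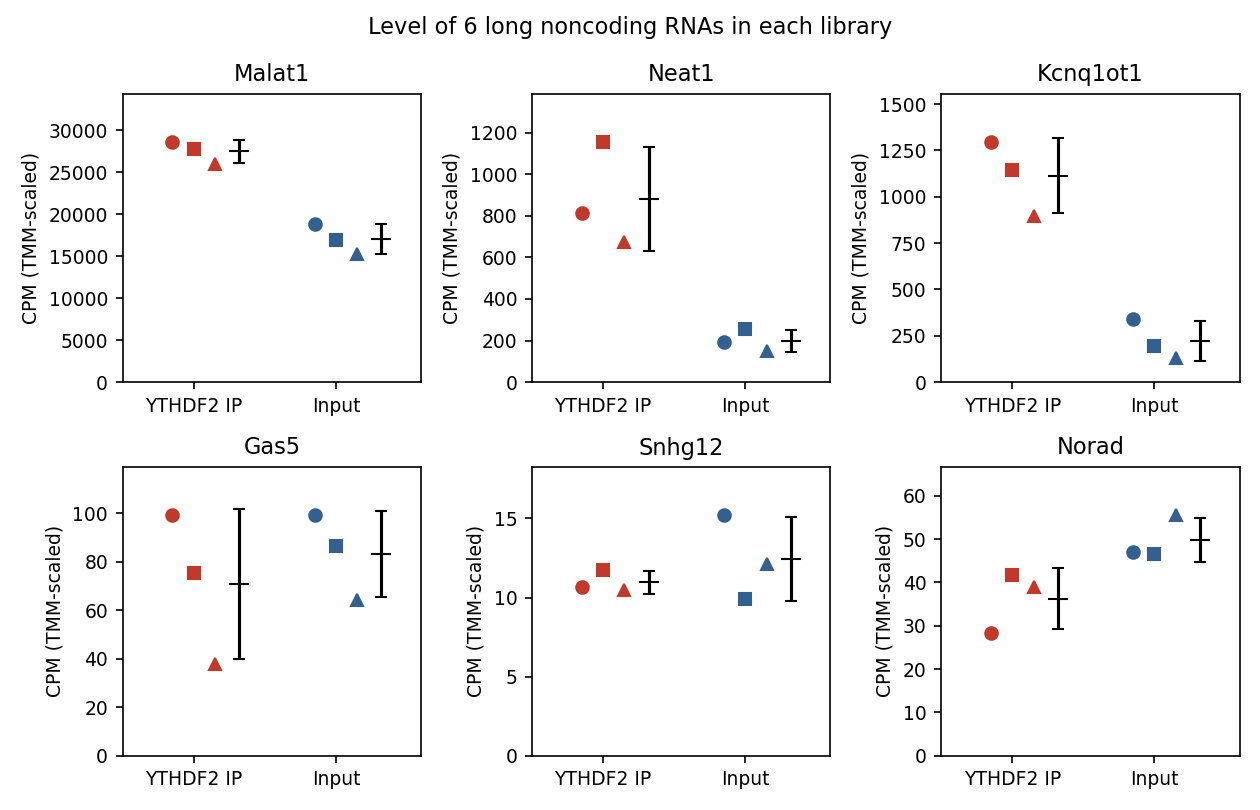
Each panel gives the level of 1 RNA in CPM, with the 3 YTHDF2 IP libraries left and the 3 Input libraries right. Circles, squares and triangles are replicates 1, 2 and 3, and black bars give the mean and SD. The libraries of the groups overlap for Gas5 and Snhg12, and for Norad the IP libraries lie below the Input libraries.

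Gas5 and Snhg12 are host genes whose introns are processed into snoRNAs, which guide chemical modification of other RNAs. RefSeq places 8 snoRNA genes inside Gas5 (ENSMUSG00000053332, chromosome 1, bases 161034601 to 161038539, plus strand) and 4 inside Snhg12 (ENSMUSG00000086290, chromosome 4, bases 132308678 to 132311024, plus strand). Many snoRNA hosts are known to begin with a run of C and T at the transcription start, the 5′ terminal oligopyrimidine (TOP) tract, which links their RNAs to the translation machinery. The first 50 bases after the annotated starts of the members in RefSeq's table of starts (build GRCm38.p6) are shown because this tract is a known feature of such hosts and was not used to pick them. The table holds starts for 4 of the 6 members, and Gas5 has a pair of starts. Capitals mark an unbroken run of at least 5 C or T from the first base.
Gas5, upstream start, chr1:161034601-161034650, plus strand: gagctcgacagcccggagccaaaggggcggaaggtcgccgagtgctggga
Gas5, downstream start, chr1:161035166-161035215, plus strand: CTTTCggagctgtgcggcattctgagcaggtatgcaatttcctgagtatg
Snhg12, chr4:132308678-132308727, plus strand: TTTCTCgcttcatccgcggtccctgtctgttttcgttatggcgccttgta
Malat1, chr19:5802623-5802672, minus strand: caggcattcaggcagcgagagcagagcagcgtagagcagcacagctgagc
Kcnq1ot1, chr7:143296498-143296547, minus strand: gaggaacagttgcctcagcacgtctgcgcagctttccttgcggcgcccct
The downstream start of Gas5 opens with 5 such bases and Snhg12 with 6, while Malat1 opens with 1, and Kcnq1ot1 and the upstream start of Gas5 with 0. The Gas5 run begins with C and the Snhg12 run with T, and whether either is a TOP tract was not tested. Of the 32851 starts in the table, read on the strand of the gene, 4.44% open with a run of at least 5. The counts are per gene, so they do not show which Gas5 start was in use.

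Gas5, known for binding the glucocorticoid receptor and for accumulating in cells that stop growing, had 847, 519 and 319 reads in the IP libraries and 1376, 818 and 741 in the Input libraries. It stood at 99.2, 75.3 and 37.9 CPM in the IP, against 99.2, 86.3 and 64.2 CPM in the Input. The groups overlapped, and IP replicate 3 was the lowest of the 6 libraries by a wide margin. Its log2 fold change was -0.23 ± 0.36 (SE; 95% interval -1.04 to 0.57), and edgeR's test gave an adjusted p of 0.794. Without IP replicate 3 the log2 fold change was 0.034.

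Snhg12, the host of Snora16a, Snora44, Snora61 and Snord99, had the fewest reads of the 6, not corrected for length. It had 91, 81 and 88 reads in the IP libraries and 211, 94 and 140 in the Input libraries. These were 10.7, 11.8 and 10.5 CPM in the IP and 15.2, 9.92 and 12.1 CPM in the Input. The IP libraries were tightly grouped and lay within the range of the Input libraries. The log2 fold change was -0.18 ± 0.68 (SE; 95% interval -1.70 to 1.34), and edgeR's test gave an adjusted p of 0.926. An interval this wide does not show that Snhg12 was equal in IP and Input, and changes of 2-fold in either direction lie inside it. Among the 3903 tested genes between the lower quartile and the median of level, where Snhg12 lies, 0.128% were called enriched and 2.00% depleted.

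Norad, which keeps Pumilio proteins away from their mRNA targets and is needed for stable chromosome numbers, was the one cytoplasmic RNA of the 6 chosen by its place in the cell. Its gene (ENSMUSG00000102869) lies on chromosome 2 from base 156388063 to 156392979, a span of 4917 bases within the span of the noncoding gene Gm14170. How the counting assigned reads shared by these genes is not given, which touches every Norad value below, and reads assignable to more than one gene were the smaller share in the IP, as given above. Norad had 242, 287 and 327 reads in the IP libraries, against 652, 441 and 641 in the Input libraries. These were 28.3, 41.7 and 38.8 CPM in the IP and 47.0, 46.5 and 55.5 CPM in the Input. Every IP library lay below every Input library, which held for 23.7% of all tested genes. The log2 fold change was -0.45 ± 0.32 (SE; 95% interval -1.17 to 0.26), and edgeR's test gave an adjusted p of 0.469, so a depletion was not called. In the class of genes where Norad lies by level, from the median up to the upper quartile, 2.54% were called enriched and 5.30% depleted. The upper end of the interval lies below the lower end of those of Malat1, Neat1 and Kcnq1ot1.

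**Figure D3:**
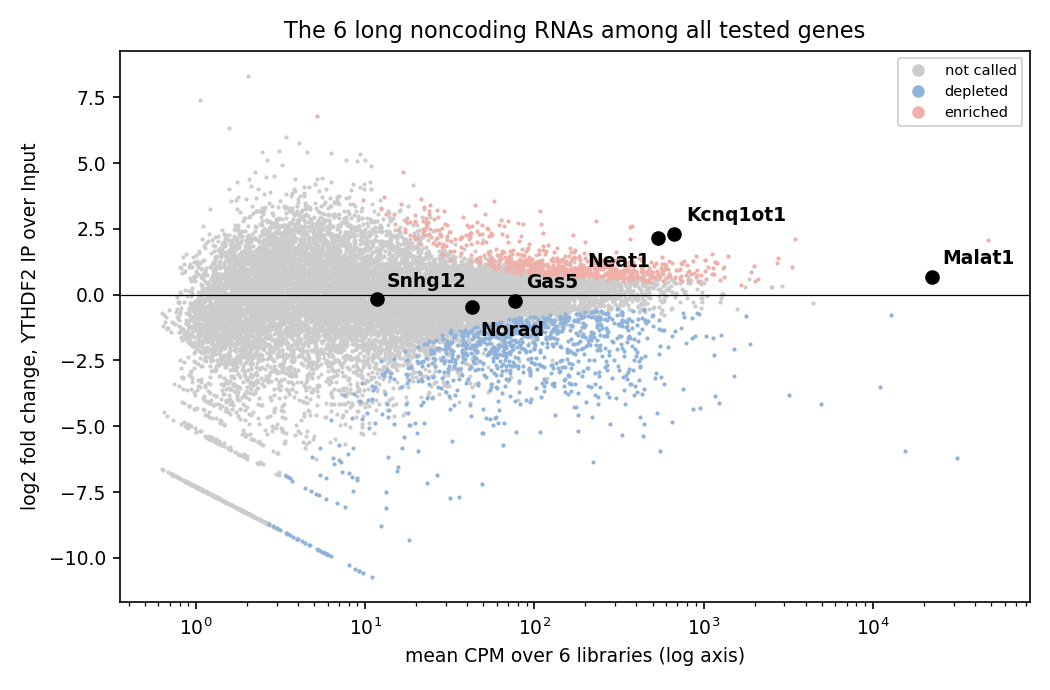
Each dot is 1 of 15615 tested genes, with its mean CPM over the 6 libraries on the log x axis and its log2 fold change of YTHDF2 IP over Input on the y axis. Pink dots were called enriched and blue dots depleted. Neat1 and Kcnq1ot1 lie near the upper edge of genes of like level, Malat1 lies among the genes with the most reads, and Gas5, Snhg12 and Norad lie in the body of the cloud.

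Ratios between members inside 1 library do not depend on how libraries are scaled to each other. They show whether members differed in recovery, which here means only the level in the IP relative to the Input. Background on the beads and the assignment of reads shared between genes also enter these ratios, and their part was not tested. For each of the 15 pairs, log2 of the ratio of reads (0.5 added to each count) was compared between IP and Input libraries. In all 9 pairs of a nuclear RNA with a snoRNA host or Norad, all IP libraries had a higher ratio than all Input libraries, by 0.85 to 2.88 on the log2 scale. Each of these pairs had p = 0.1 in an exact two-sided permutation test, the smallest possible, so no pair could pass 0.05 in this design. The 9 pairs reuse the same RNAs, which were picked with earlier results of these libraries known. They are therefore not separate tests, and their number adds no support to the split described above. How often ratios between other tested genes separate the groups in this way was not tested.

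The pair that shifted most was Kcnq1ot1 over Norad. Its log2 ratio was 5.51, 4.78 and 4.53 in the IP libraries, against 2.85, 2.07 and 1.25 in the Input libraries, a shift of 2.88 or 7.38-fold. Neat1 over Norad shifted by 2.61 on the log2 scale, and Malat1 over Norad by 1.16. The ratio of Malat1 to Norad was thus 2.24-fold higher in the IP, whatever the scaling.

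The nuclear RNAs differed among themselves in estimated recovery. Malat1 over Neat1 had a log2 ratio of 5.14, 4.59 and 5.27 in the IP libraries and 6.62, 6.06 and 6.66 in the Input libraries. The groups did not overlap, and the shift was -1.45 on the log2 scale, with p = 0.1 in the exact permutation test. Malat1 over Kcnq1ot1 shifted by -1.72, again with no overlap and p = 0.1 in the exact test. The estimated recovery of Malat1 and Neat1, neighbours on chromosome 19, thus differed by 2.73-fold. Adjusted over the 15 pairs, the exact permutation test gave p = 0.136 for each of these shifts. Neat1 over Kcnq1ot1 shifted by -0.28, with overlapping groups and p = 0.6 in the exact test.

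Among Gas5, Snhg12 and Norad the groups overlapped in all 3 pairs. Gas5 over Snhg12 shifted by -0.16 (exact p = 0.8), Gas5 over Norad by 0.15 (exact p = 1) and Snhg12 over Norad by 0.31 (exact p = 0.3). The Gas5 to Norad ratio varied most within the IP, with an SD of 0.92: its log2 was 1.81, 0.85 and -0.036 in the IP libraries and 1.08, 0.89 and 0.21 in the Input libraries.

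Levels per length were compared between the 4 RNAs known to be unspliced, for which the RefSeq span can stand for the RNA. In the Input the order was Malat1 at 2442 ± 258 CPM per kb, Norad at 10.1 ± 1.03, Neat1 at 9.58 ± 2.48 and Kcnq1ot1 at 2.66 ± 1.27 (SD, n = 3 each). Norad and Neat1 overlapped in the Input, at 9.46 to 11.3 and 7.27 to 12.2 CPM per kb, and did not differ beyond their spread. In the IP the order was Malat1 at 3937 ± 196 CPM per kb, Neat1 at 42.4 ± 11.95, Kcnq1ot1 at 13.3 ± 2.42 and Norad at 7.38 ± 1.43. Here the lowest Neat1 library, at 32.5 CPM per kb, lay above the highest Norad library, at 8.47. No neighbours in the IP order overlapped, and the lowest Kcnq1ot1 library stood at 10.8 CPM per kb. Kcnq1ot1 had more reads than Neat1 in the IP on average but a lower level per kb, since its span is 83.4 kb against 20.8 kb. A shorter Neat1 isoform is known, and the counts do not separate it, so the level per kb of Neat1 is an average over the long span.

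The order of the estimated log2 fold changes of these 4 RNAs, Kcnq1ot1, Neat1, Malat1 and Norad, was also their order by span, from 83.4 to 4.92 kb. Gas5 and Snhg12, whose gene spans of 3.94 and 2.35 kb include introns, broke this order. Their estimated log2 fold changes of -0.23 and -0.18 lay above the -0.45 of Norad, with overlapping intervals. The intervals of Kcnq1ot1 and Neat1 overlap, and 4 RNAs are too few for more than a description. Whether length and recovery go together over all genes was not tested, since the IDs of the files could not be joined to lengths.

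**Figure D4:**
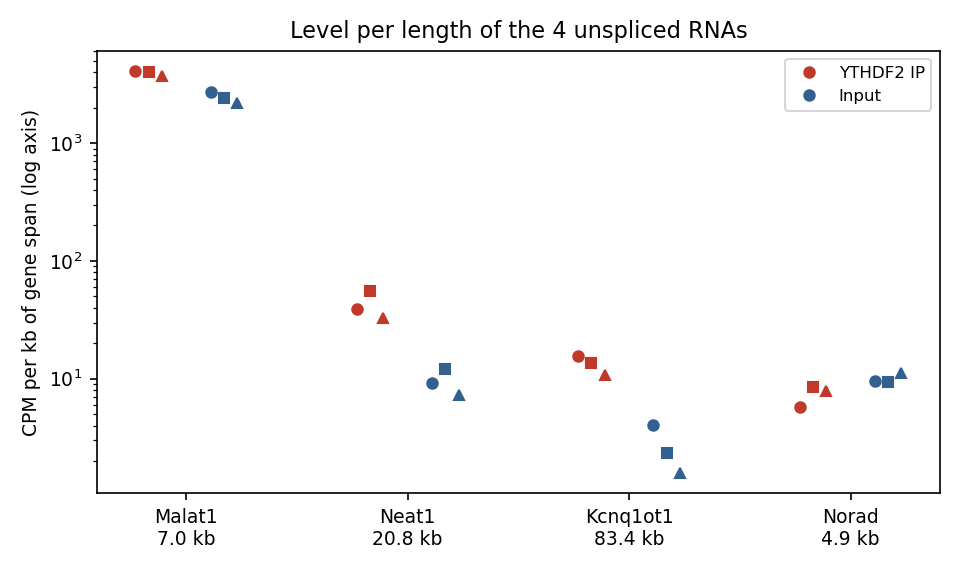
Level per length of the 4 unspliced RNAs in CPM per kb of RefSeq gene span, on a log axis, with red for YTHDF2 IP and blue for Input. Circles, squares and triangles are replicates 1, 2 and 3. Neat1 and Norad share a range in the Input and are apart in the IP.

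Together the 6 RNAs took 3.05% ± 0.0606 of gene-assigned reads in the IP and 1.67% ± 0.172 in the Input (SD, n = 3 each), and Malat1 made up nearly all of that share. The profile over the 6 libraries that lay closest to that of Malat1 belonged to ENSMUSG00000040481.17, with a root mean square distance of 0.0278 on the centred log2 CPM scale. It had 753 ± 52.2 CPM in the IP and 467 ± 46.5 CPM in the Input (SD, n = 3 each), and 767 tested genes lay within 0.25 of Malat1. Far fewer genes were as near to the other nuclear RNAs: 6 lay within 0.25 of Neat1 and 15 within 0.25 of Kcnq1ot1. The distance includes the difference between IP and Input, so few genes can lie near an RNA with an extreme fold change. These counts are therefore no finding apart from the fold changes. For Gas5, Snhg12 and Norad the counts were 115, 327 and 343. The nearest to Neat1 was ENSMUSG00000076922.1, at 131 ± 25.5 CPM in the IP and 31.7 ± 7.74 CPM in the Input (SD, n = 3 each) and a distance of 0.131. No file or reference table used here gives these IDs a name. Neat1 and Kcnq1ot1 were 0.444 apart on the same scale, and Snhg12 and Norad, at 0.288, were the closest members.

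**Figure D5:**
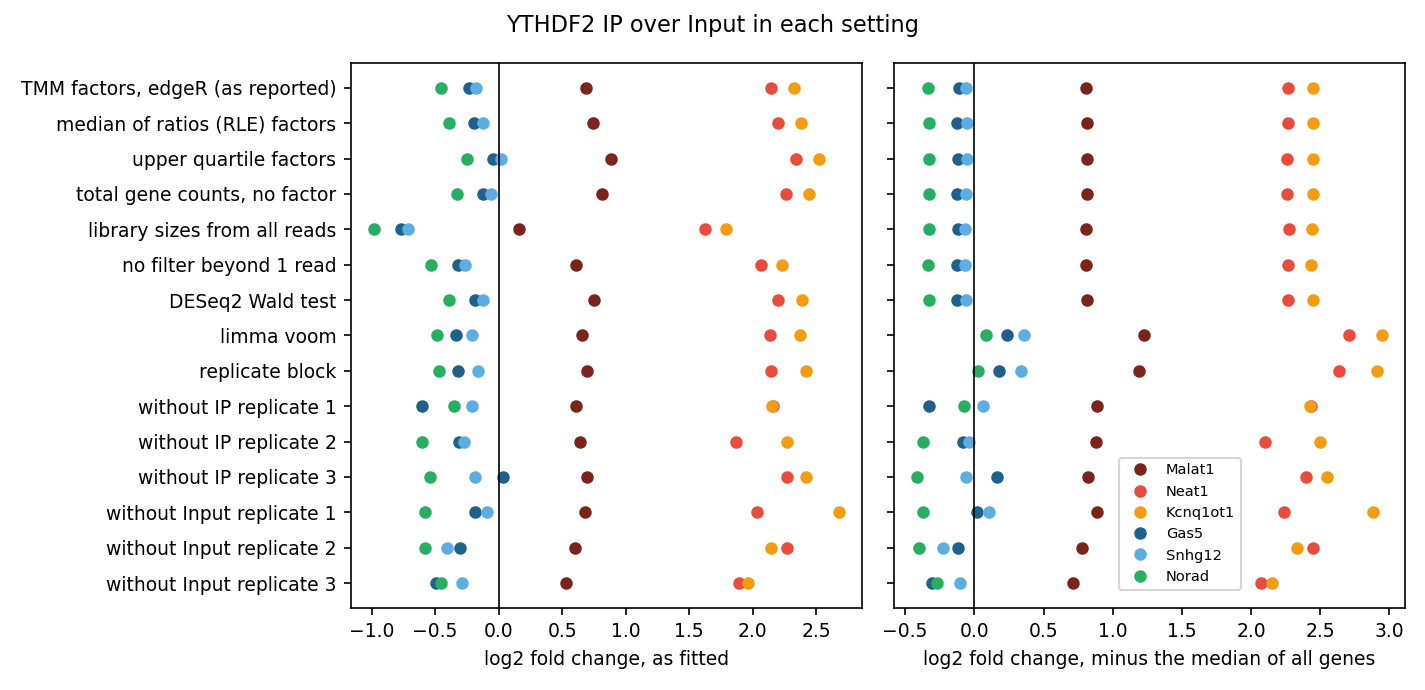
The log2 fold change of YTHDF2 IP over Input of each RNA in each setting of the processing, as fitted (left) and after subtracting the median of all genes (right). Malat1, Neat1 and Kcnq1ot1 lie above 0 in every setting, and Malat1 falls to 0.16 with library sizes from all reads. Gas5, Snhg12 and Norad lie near or below 0 as fitted, and some of their values change side after the median is subtracted.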

How the data were processed

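Each of the 6 deposited files holds raw read counts per Ensembl gene ID for 1 library. Trimmomatic 0.39, HISAT2 2.1.0, DESeq2, HTSeq and build mm10 are named in the submitters' processing notes, with no roles, and neither annotation release nor strand setting is given. The 92 spike-in IDs and 5 summary categories stayed out of library sizes, and reads in no feature made up 49.6% to 72.1% of a file. The 6 members and the tests were chosen with earlier results of these data known. Names come from the list of IDs that defined the group: 0 of 49997 rows of the reference gene table hold an Ensembl ID, so the lists of other noncoding RNAs, paraspeckle proteins, Norad partners and cell type markers were not tested. Positions are from RefSeq (GRCm38.p6, the assembly of mm10).

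Counts were tested across all genes with edgeR 4.0.16 in R 4.3.3 (filterByExpr, TMM, robust quasi-likelihood F-test, two-sided). Standard errors come from the F statistics. Apart from the members, the IDs named are the profiles closest to a member. No molecular identifiers are in the files. Alternatives were other size factors, library sizes from all reads, no filter, DESeq2 1.42.0, limma 3.58.1 voom, a replicate block and each library left out. The labels do not say whether an IP and an Input library of equal number share a lysate, so equal numbers were not treated as pairs. Over all tested genes, deviations of same-numbered libraries correlated at 0.0999, 0.0260 and 0.0242. Correlations this low do not exclude a shared lysate, since noise in genes with few reads also lowers them. The fit with a replicate block is given below.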

Additional observations from a re-analysis of the deposited data

Results flagged for a closer look

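A signal outside the gene counts was seen in the reads that fell in no annotated feature: their mean share was 71.7% in IP files against 50.4% in Input files, with p = 0.1 in the exact permutation test (n = 3 each).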

How the results depend on the processing

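Neat1, Kcnq1ot1 and Norad kept their direction and their side of the threshold in all 14 alternatives, with log2 fold changes of 1.62 to 2.34, 1.79 to 2.68 and -0.98 to -0.25. Malat1 kept its call in 13 and lost it with library sizes from all reads, at 0.16. Snhg12 reversed to 0.021 with upper quartile factors, and leaving out 1 library gave -0.60 to 0.034 for Gas5, which reversed without IP replicate 3, and neither was called in any of the 14. With a replicate block the log2 fold changes were 0.69, 2.14, 2.42, -0.32, -0.16 and -0.47 for Malat1, Neat1, Kcnq1ot1, Gas5, Snhg12 and Norad, and no call on them changed. The median of all tested genes was -0.12 with TMM factors, 0.077 with upper quartile factors, 4.04e-05 with total gene counts, -0.65 with library sizes from all reads, -0.57 with limma voom and -0.50 with a replicate block.

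Of the 120 alternative values of the ratios between members, 116 kept their sign, but most of these could not have changed it. A replicate block leaves a mean shift as it is, and leaving out 1 library cannot reverse a pair whose groups do not overlap. That was so for 11 of the 15 pairs, so the count of 116 is no measure of robustness. The 4 reversed values came from leaving out 1 library, which gave -0.48 to 0.20 for Gas5 over Snhg12 and -0.32 to 0.60 for Gas5 over Norad. Over all genes, 676 were enriched and 954 depleted, against 1081 enriched with upper quartile factors, 160 and 1958 with library sizes from all reads, and 1394 and 2101 with DESeq2, while limma voom gave 1715 depleted. The enriched share of calls was 41.5% (TMM), 57.4% (upper quartile), 51.8% (total gene counts) and 7.55% (all reads). Leaving out 1 library gave 188 to 999 enriched and 563 to 1661 depleted genes, with the lowest counts without Input replicate 3 and the highest without IP replicate 3. For these counts the cause was not tested. Snhg12 had 81 to 91 reads in an IP library, and the part of depth in its wide interval was not tested.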
